A study of Mus musculus with 72 samples.

Results

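The Commd1/Zrsr1 region is an imprinted stretch of mouse chromosome 11 at which CpG methylation was read on each parental allele by IMPLICON, a bisulfite amplicon sequencing assay. Its members were the table rows whose feature name was Commd1, which are 14 of the 224 CpGs listed. Of these, 13 reached 50 or more calls on an allele in at least 1 library and carry every result here. The CpG farthest downstream, CpG 14, never had more than 1 call on an allele. CpGs are numbered 1 to 14 by position, and a level is the mean percent methylation over the 13 CpGs of an allele in a library.

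Per its title, the study asked whether imprinting stays stable in the aged brain. The animals were 8 female F1 mice from reciprocal crosses of the strains BL6 and CAST (labelled Cast), with no other allele or agent given in the labels. Old mice 1 and 2 (BL6 mother, CAST father) were 101 weeks old and old mice 3 and 4 (CAST mother, BL6 father) were 103 weeks old. Young mice 5 and 6 (CAST mother, BL6 father) were 8 weeks old and young mice 7 and 8 (BL6 mother, CAST father) were 9 weeks old. Each mouse gave dissected cerebellum, hippocampus, hypothalamus, nucleus accumbens, prefrontal cortex and lung, so that 48 libraries were compared, and a further 24 samples named in the labels were not analysed here. Each piece of tissue was homogenised whole, so a level is an average over its cell types, and DNA methylation gives no marker expression against which to check the dissections. Only 2 mice stood behind each combination of age and cross, and within an age the crosses also differed in weeks of age.

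Commd1 encodes a protein of copper handling, endosomal sorting and NF-kappaB control. Zrsr1, a retrogene related to the splicing factor gene Zrsr2, lies inside an intron of Commd1 and runs in the opposite direction. In mice the Zrsr1 promoter acquires methylation in the oocyte, keeps it on the maternal allele, and Zrsr1 is transcribed from the unmethylated paternal allele. Commd1 itself is known in mouse brain for higher expression from the maternal allele.

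On build GRCm38 the 14 CpGs span chromosome 11 from 22971952 to 22972139. RefSeq places Commd1 at 22899728 to 22984539 and Zrsr1 at 22972005 to 22976496 on the same chromosome. CpGs 1 to 4 therefore lie before the annotated Zrsr1 start, at 53, 30, 23 and 6 bases upstream (positions -53, -30, -23 and -6). CpGs 5 to 13 lie inside Zrsr1, starting 5 bases past its start, and all of them lie within the span of Commd1. The stretch just upstream of Zrsr1 is shown because its CpGs had the lowest maternal levels of the region. It is chr11:22971905-22972004 on the plus strand, from RefSeq's promoter table on GRCm38.p6, with the 4 measured CpGs in capitals.
Zrsr1 upstream: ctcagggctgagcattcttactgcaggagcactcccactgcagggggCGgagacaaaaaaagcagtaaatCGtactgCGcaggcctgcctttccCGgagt
The capitals mark CpGs 1, 2, 3 and 4 in that order, and this stretch of 100 bases holds no other CG. The promoter window of 300 bases around the Zrsr1 start held 10 CG, and 43.5% of the 32851 windows in the table held at least as many. The letters TGCCGC, the core bound by the imprint-maintaining factor ZFP57 when methylated, or their reverse complement GCGGCA, were not in the Zrsr1 window, while 11.6% of all windows held them. That window ends at 22972054, the C of CpG 7, and holds both bases of only 6 measured CpGs. CpG 7 and the bases around CpGs 8 to 14 were therefore not searched.

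Depth set which libraries could be read. Calls per CpG at Commd1 had a median over libraries of 257 on the maternal allele and fewer on the paternal one. Maternal levels were available in 42 libraries, paternal levels in 38, and both in 38, while 6 libraries gave neither. The missing libraries were those of mouse 8 in 3 tissues, mouse 4 in 2 tissues and mouse 3 in hippocampus, and 4 more, of mice 4, 5 and 8, lacked the paternal level alone. One library stood apart from the rest. The prefrontal cortex library of mouse 5 gave 548 maternal calls per CpG against 17 paternal ones (medians), while at Gnas it gave 650 and 727. Its skew was not particular to Commd1. The maternal share of its calls was 8% or less at Snrpn, Mest and the unmethylated control Klf4, a skew in the other direction. It was nearer to even at H13, Impact, Plagl1, Prickle1 and Sox2ot. Results that use this library are also given without it where that changes a value by more than 1.5 times or changes a call.

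The maternal allele was methylated and the paternal allele was nearly free of methylation in each library that could be read on both alleles. The difference between alleles of 1 library ran from 72.1 to 94.0 percentage points, with a median of 86.5 points over 38 libraries. Maternal levels ran from 72.7% to 98.5% with a median of 92.3%. Paternal levels ran from 1.19% to 14.8% with a median of 4.94%, and 19 of 38 lay under 5%. The alleles did not overlap in any tissue.

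The maternal minus paternal difference was 87.1 ± 6.19 points in cerebellum (SD, n = 7 mice, exact sign-flip p = 0.0156, adjusted over 6 tissues 0.0312). It was 86.7 ± 2.39 points in prefrontal cortex and 84.8 ± 4.99 points in lung (n = 7 mice and adjusted exact p = 0.0312 for each). It was 84.8 ± 7.62 points in hypothalamus and 86.3 ± 4.22 points in nucleus accumbens (n = 6 mice and adjusted exact p = 0.0375 for each). In hippocampus it was 88.1 ± 2.40 points, and with n = 5 mice the exact p of 0.0625 is the smallest that design allows. Maternal exceeded paternal in every mouse measured in each of the 6 tissues. These directions rest on reading genome 1 of the table as BL6, an assignment that no label gives. That reading is the one that puts methylation on the maternal allele at regions known to be maternally methylated. The maternal direction is therefore taken from the known imprint and was not tested here. Taken as CAST, the same values change sign in all 6 tissues. Under either reading the methylated genome changed with the cross, so it followed a parent and not a strain.

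**Figure D1:**
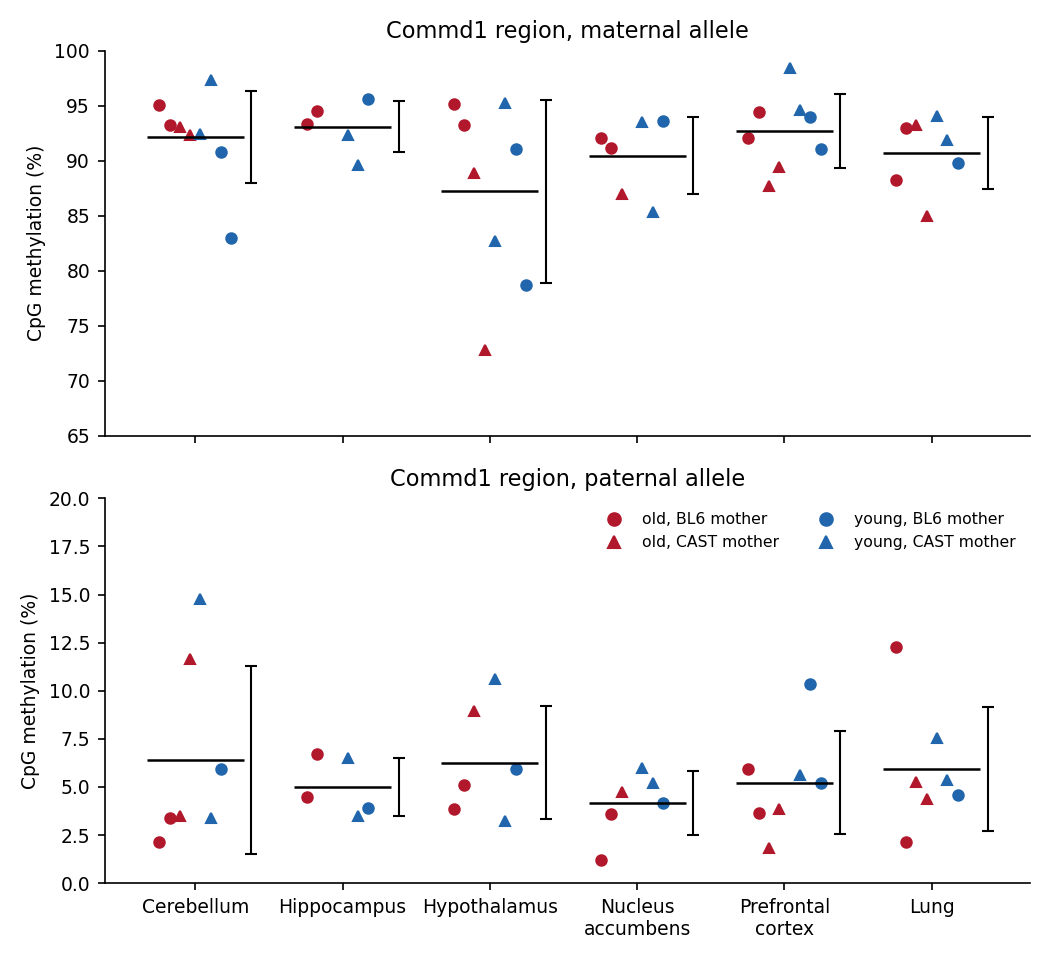
Methylation level of the Commd1 region (mean of 13 CpGs, percent) in each library by tissue, maternal allele above and paternal allele below, on axes of different range. Points are mice coloured by age and shaped by mother's strain, lines are tissue means and bars their SD; the lowest maternal points, at 72.7% and 78.7%, are hypothalamus libraries.

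In cerebellum the maternal level was 95.1%, 93.2%, 93.0% and 92.3% in old mice 1 to 4 and 92.4%, 97.4%, 90.8% and 82.9% in young mice 5 to 8. In hippocampus it was 93.4% and 94.6% in old mice 1 and 2, and 92.3%, 89.6% and 95.7% in young mice 5, 6 and 7. In hypothalamus it was 95.1%, 93.3%, 88.8% and 72.7% in the old mice and 82.7%, 95.2%, 91.1% and 78.7% in the young mice. Hypothalamus thus had the widest spread, and old and young values overlapped in all 3 tissues.

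In nucleus accumbens the maternal level was 92.1%, 91.1% and 86.9% in old mice 1, 2 and 3, and 93.5%, 85.4% and 93.6% in young mice 5, 6 and 7. In prefrontal cortex it was 92.1%, 94.4%, 87.7% and 89.5% in the old mice and 98.5%, 94.6%, 94.0% and 91.1% in the young mice. In lung it was 88.2%, 93.0%, 93.2% and 85.0% in the old mice, and 94.1%, 91.9% and 89.8% in young mice 5, 6 and 7. Prefrontal cortex had the largest difference between the age means, yet 2 old mice lay above the lowest young mouse.

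Tissue means of the maternal level ran in the order hippocampus, prefrontal cortex, cerebellum, lung, nucleus accumbens and hypothalamus. The hippocampus mean was 93.1% ± 2.31 (SD, n = 5), the prefrontal cortex mean 92.7% ± 3.38 (n = 8) and the cerebellum mean 92.1% ± 4.22 (n = 8). Lung had 90.7% ± 3.28 (n = 7), nucleus accumbens 90.4% ± 3.50 (n = 6) and hypothalamus 87.2% ± 8.31 (n = 8). No 2 neighbours in this order differed within mice beyond their spread, with exact sign-flip p from 0.156 to 0.781. Over the same mice the order of some neighbours turned, since hippocampus was 1.60 points below prefrontal cortex in the 5 mice that had both. With a minimum of 20 calls the order also changed, with nucleus accumbens lowest at 84.1% ± 12.1, below hypothalamus at 87.2% ± 8.31 (n = 8 mice each).

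Paternal tissue means lay between 4.16% and 6.41%. Cerebellum had 6.41% ± 4.88 (SD, n = 7), hypothalamus 6.27% ± 2.91 (n = 6) and lung 5.93% ± 3.23 (n = 7). Prefrontal cortex had 5.21% ± 2.67 (n = 7), hippocampus 5.02% ± 1.51 (n = 5) and nucleus accumbens 4.16% ± 1.68 (n = 6). Neighbours in this order did not differ within mice beyond their spread, with exact sign-flip p from 0.375 to 1. The 5 paternal levels above 10% came from 5 different libraries of mice 1, 4, 5 and 7, namely cerebellum of mice 4 (11.7%) and 5 (14.8%), hypothalamus of mouse 5 (10.6%), lung of mouse 1 (12.3%) and prefrontal cortex of mouse 7 (10.4%). The paternal means of all tissues but prefrontal cortex were higher when shallower libraries were let in. With a minimum of 20 calls nucleus accumbens had 8.05% ± 7.92 (n = 8), hypothalamus 10.4% ± 8.08 (n = 8) and hippocampus 6.58% ± 3.44 (n = 7), with single paternal levels up to 25.2%. Hypothalamus then came first and prefrontal cortex last in the order.

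The maternal level moved with depth. The 4 libraries with under 100 maternal calls per CpG had 79.8% ± 5.40 (72.7% to 85.0%), the 8 libraries with 100 to 200 calls had 90.9% ± 2.60, and the 30 with 200 or more had 92.4% ± 3.28. All 4 shallow libraries came from mice 4 and 8. Over 42 libraries the level and the calls had a Spearman rho of 0.54 and, against log2 calls, a Pearson r of 0.70, given as a description because libraries share mice and a sequencing lane. On the paternal allele these were -0.29 and -0.25 over 38 libraries. A library with 52 maternal calls and a level of 72.7%, the shallowest, had a 95% Wilson interval of its level from 59.7% to 83.2%, which covers counting error only. The part of depth in the levels was not tested.

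**Figure D2:**
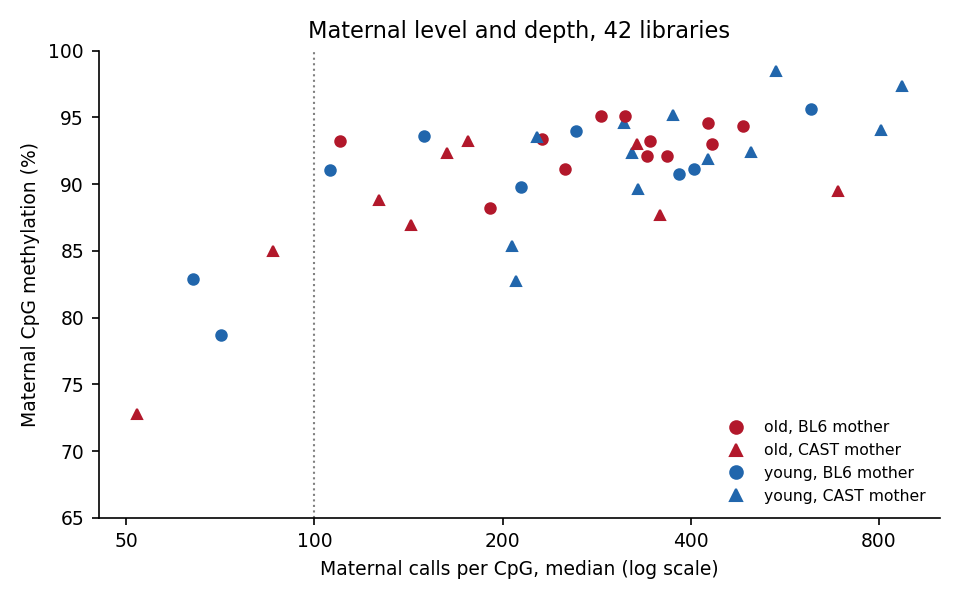
Maternal methylation level of the Commd1 region (percent) against the median maternal calls per CpG (log scale) in 42 libraries, coloured by age and shaped by mother's strain; the dotted line marks 100 calls. The 4 libraries left of the line lie between 72.7% and 85.0%, and the 30 with 200 or more calls average 92.4%.

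Old and young mice did not differ detectably at Commd1 in any tissue or on either allele. Limma, fitted to all region-alleles of the table with the cross as a covariate, called 0 of the 12 Commd1 comparisons (adjusted p from 0.693 to 0.994). It called 0 of 97 region-alleles in the whole table (0%), with 5 of 97 and 0 of 12 at an unadjusted p under 0.05, and edgeR on the calls also called none of the 12. On the maternal allele the fitted old minus young difference was 2.54 points in cerebellum (95% interval -3.80 to 8.88) and 0.56 points in hypothalamus (-13.7 to 14.8). It was -1.69 points in hippocampus (-7.38 to 4.00), -1.99 points in lung (-8.53 to 4.56), -2.27 points in nucleus accumbens (-9.08 to 4.54) and -3.61 points in prefrontal cortex (-8.96 to 1.74).

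In prefrontal cortex the old mice had a maternal mean of 90.9% ± 2.94 and the young mice 94.5% ± 3.05 (SD, n = 4 each, exact permutation p = 0.171). Without the mouse 5 library, the fitted maternal difference there was -1.97 points (limma adjusted p = 0.802). On the paternal allele of the same tissue the old mice had 5.93%, 3.64%, 1.82% and 3.87%, and young mice 6, 7 and 8 had 5.61%, 10.4% and 5.23%. The fitted paternal difference was -2.91 points (95% interval -7.03 to 1.21, exact permutation p = 0.114 with n = 4 and 3). The old paternal values lay mostly below the young ones but overlapped them.

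On the paternal allele the other fitted age differences were -2.17 points in cerebellum, -1.33 in nucleus accumbens, 0.05 in lung, 0.29 in hypothalamus and 1.70 in hippocampus. Hippocampus had no old mouse with a CAST mother, so its age difference rests on 2 old mice of a single cross. Averaged over tissues per mouse, old mice had a maternal level of 90.4% ± 3.65 and young mice one of 90.4% ± 3.88 (SD, n = 4 each, exact permutation p = 1). The paternal level averaged 5.03% ± 0.92 in old and 6.19% ± 2.00 in young mice (n = 4 each, exact permutation p = 0.371). An exact test of 4 against 4 mice cannot go below 0.0286.

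**Figure D3:**
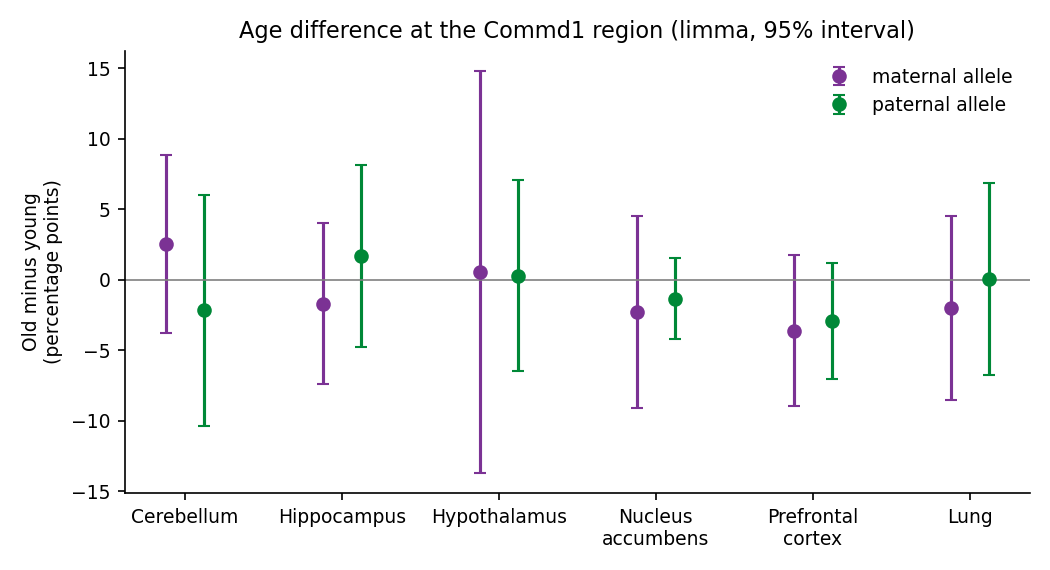
Old minus young difference of the Commd1 region level (percentage points) by tissue, from limma with the cross as covariate; points are fitted differences and bars 95% intervals, maternal allele in purple and paternal allele in green. All 12 intervals include 0, and the widest, for maternal hypothalamus, runs from -13.7 to 14.8.

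CpG by CpG, limma called none of the 78 maternal and 78 paternal Commd1 tests for age, beside 0 of 1223 in the table (0%). An unadjusted p under 0.05 was reached by 3 of the Commd1 tests, beside 67 of the 1223. Such tests were thus no more frequent at Commd1 than in the table. All 3 were in prefrontal cortex and lower in old mice. The largest was maternal CpG 2, 30 bases before the Zrsr1 start, which fell short of the threshold at -13.6 points (limma adjusted p = 0.849, 95% interval -21.3 to -5.95). Its maternal values in prefrontal cortex were 83.0%, 83.5%, 74.8% and 73.7% in old mice 1 to 4 and 98.2%, 89.8%, 92.0% and 89.6% in young mice 5 to 8. The ages did not overlap at this CpG, which was singled out after its values were seen, and without the mouse 5 library the difference was -10.7 points (limma adjusted p = 0.431). Maternal CpG 4 had -9.08 points and paternal CpG 12 had -5.54 points, each with a limma adjusted p of 0.849. The age differences of 2 tissues were also compared within mice. Limma called 0 of the 30 Commd1 pairs (adjusted p from 0.925 to 0.967), beside 1 of 240 in the table (0.417%). Unadjusted, 1 of the 30 had a p under 0.05, beside 10 of the 240.

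Between tissues, no Commd1 region level passed the test. Limma called 0 of 30 tissue pairs at Commd1, beside 28 of 268 in the whole table (10.4%). An unadjusted p under 0.05 was reached by 3 of the 30, beside 48 of the 268. All 3 set the maternal level of hypothalamus below another brain area. Prefrontal cortex exceeded hypothalamus by 5.50 points (95% interval 0.61 to 10.4, limma adjusted p = 0.207), and was higher in 5 of 8 mice. Cerebellum exceeded it by 4.93 points and hippocampus by 5.71 points (limma adjusted p = 0.277 for each). Within mice, maternal prefrontal cortex also exceeded nucleus accumbens by 3.10 ± 3.58 points (SD, n = 6), higher in 6 of 6 mice. The exact sign-flip p of 0.0312 there is the smallest that 6 mice can give, and adjusted it was 0.670. With a minimum of 100 calls the hypothalamus mean was 91.1% ± 4.76 (n = 6), which puts it above nucleus accumbens at 90.4% ± 3.50.

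Single CpGs gave 2 calls of 390 between tissues, beside 5.98% of the 3360 in the table. Of the 390, 29 had an unadjusted p under 0.05 (28 of them maternal), beside 489 of the 3360. Both calls set the maternal level in prefrontal cortex above that in hypothalamus, at CpGs 7 and 9, which lie 49 and 88 bases past the Zrsr1 start, at 22972054 and 22972093. At CpG 7 the prefrontal cortex values of mice 1 to 8 were 96.5%, 95.7%, 96.3%, 93.8%, 98.4%, 96.5%, 94.3% and 93.4%. The hypothalamus values of the same mice at CpG 7 were 93.9%, 93.0%, 89.0%, 74.5%, 82.3%, 94.4%, 93.8% and 81.4%. Prefrontal cortex was thus higher in 8 of 8 mice, by 7.80 points (95% interval 3.54 to 12.1, limma adjusted p = 0.0192), and the low hypothalamus values belonged to mice 4, 5 and 8.

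Neither call held when limma was fitted to the differences between tissues within mice. There CpG 7 had 7.80 points (limma adjusted p = 0.133) and CpG 9 had 7.30 points (limma adjusted p = 0.147). That fit called 1 of the 390, beside 3.64% of 3300 in the table. Of the 390, 32 had an unadjusted p under 0.05, for which no count over the table is given here. Its call was maternal CpG 1, higher in prefrontal cortex than in lung by 6.50 points (95% interval 3.90 to 9.10, n = 7 mice, limma adjusted p = 0.0326).

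At CpG 9 prefrontal cortex ran from 93.9% to 98.5% (median 96.1%) and hypothalamus from 76.9% to 96.2% (median 91.0%). The difference was 7.30 points (95% interval 2.87 to 11.7, limma adjusted p = 0.0383), higher in 8 of 8 mice, although the ranges overlapped. Mice 4 and 8 had between 51 and 71 maternal calls at these CpGs in hypothalamus. In the 6 mice with 100 or more calls in both libraries the mean difference within mice was 5.20 ± 5.80 points at CpG 7 and 4.22 ± 4.17 points at CpG 9. With a minimum of 100 calls neither CpG passed (4.52 points with limma adjusted p = 0.0922, and 3.83 points with 0.0835), and neither passed without mouse 3, 4 or 5 (limma adjusted p from 0.0580 to 0.131). The edgeR test kept CpG 7 (adjusted p = 0.0448) and not CpG 9 (0.0769), and CpG 9 also missed without mouse 1, 2 or 7 (limma adjusted p from 0.0548 to 0.0676) and without the mouse 5 prefrontal cortex library (limma adjusted p = 0.0540).

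The maternal level rose along the amplicon, and the paternal level did not. The first 7 CpGs, from 53 bases before the Zrsr1 start to 49 bases past it, had a maternal mean of 88.3%, and the last 6 CpGs, the nearest 77 bases past it, had 92.6%. The first 7 minus the last 6 was -4.32 ± 1.26 points (SD, n = 8 mice, exact sign-flip p = 0.00781, the smallest that 8 mice can give). The first CpGs were lower in 8 of 8 mice and in 40 of 42 libraries. By mouse it was -4.40, -2.67, -6.02, -4.02, -4.66, -6.04, -3.90 and -2.87 points in mice 1 to 8. On the paternal allele it was -0.03 ± 0.51 points, with 5.62% in the first and 5.65% in the last CpGs (n = 8 mice, exact sign-flip p = 0.875).

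Of single CpGs, the lowest maternal mean was 85.5% ± 3.85 at CpG 2 and the highest 93.0% ± 3.51 at CpG 11 (SD over n = 8 mice). The 4 CpGs upstream of the Zrsr1 start, those in the printed sequence, had maternal means of 87.3%, 85.5%, 86.7% and 87.6%. Past the start the means were 88.5%, 90.7% and 91.5% at CpGs 5, 6 and 7, and between 91.7% and 93.0% at CpGs 8 to 13. The paternal mean was highest at CpG 1, with 7.13% ± 2.11, and lowest at CpG 7, with 4.56% ± 2.08 (n = 8). CpGs of an amplicon are read on the same molecules, so that they are not independent of each other.

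**Figure D4:**
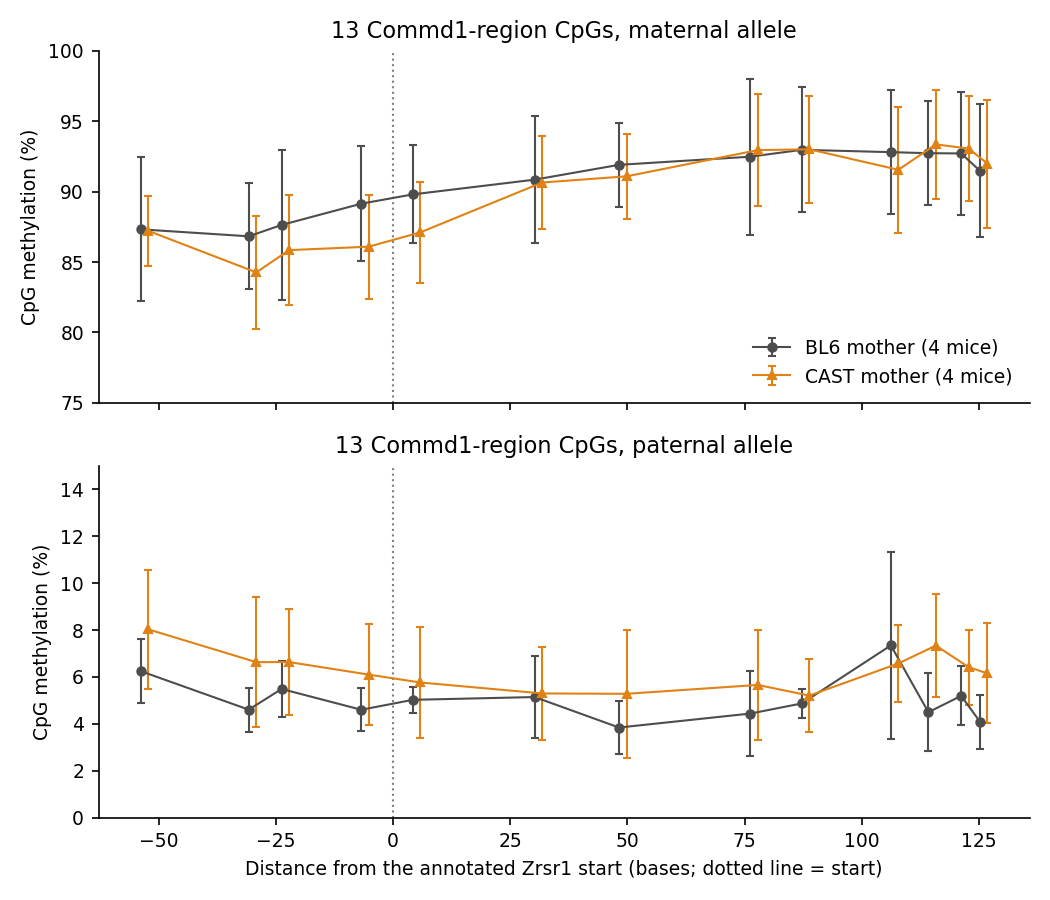
Methylation of 13 Commd1-region CpGs (percent) against distance from the annotated Zrsr1 start in bases, maternal allele above and paternal allele below, on axes of different range. Points are means and bars the SD over 4 mice of each cross; maternal means rise from 85.5% at CpG 2 to 93.0% at CpG 11 over all mice, and paternal means stay between 4.56% and 7.13%.

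The maternal step had the same direction in each tissue mean. It was -2.58 ± 2.79 points in cerebellum (SD, n = 8), -3.25 ± 1.92 in hypothalamus (n = 8) and -3.48 ± 2.19 in hippocampus (n = 5). It was -4.86 ± 4.01 in prefrontal cortex (n = 8), -5.00 ± 3.15 in lung (n = 7) and -7.81 ± 4.60 in nucleus accumbens (n = 6). It averaged -4.28 points in old and -4.37 points in young mice (n = 4 each, exact permutation p = 0.857). Mice with a CAST mother had -5.19 ± 1.01 points and mice with a BL6 mother -3.46 ± 0.83 points (n = 4 each, exact permutation p = 0.0571), a comparison made after the values were seen. On the maternal allele the mother's strain is also the strain of the allele read, and these cannot be told apart here. With a minimum of 200 calls the maternal step was -5.11 points (exact sign-flip p = 0.0156), so it was as large in the deeper libraries.

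For comparison, the same step is given for other maternally methylated regions as a description, with no test. Gnas had 9.15 ± 1.42 points (n = 8) and H13 had 3.13 ± 0.47 points (n = 8), both higher in the first part. Plagl1 had -1.93 ± 0.48 points (n = 7), Impact -3.40 ± 3.83 points (n = 7) and Mest -9.96 ± 4.09 points (n = 6). Snrpn had -0.70 ± 0.62 points (n = 5), lower in the first part in 4 of 5 mice.

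Of the regions compared, Plagl1, an imprinted gene for a zinc finger transcription factor, had the pattern most like Commd1, with a mean absolute difference of 2.93 points over 24 means by tissue, age and allele. Impact, an imprinted gene for an inhibitor of the kinase Gcn2, came next with 4.01 points over 24 means. Within libraries, Commd1 was 0.01 ± 3.50 points above Plagl1 on the maternal allele (SD, n = 7 mice, adjusted exact p = 0.969), where both averaged 91.1%. On the paternal allele it was 2.55 ± 1.80 points above Plagl1, which averaged 3.01%, and higher in 7 of 7 mice (adjusted exact p = 0.0469). Commd1 was 5.58 ± 4.84 points above Impact on the maternal allele (adjusted exact p = 0.0536) and differed from it by -0.94 ± 1.90 points on the paternal allele (adjusted exact p = 0.239; n = 7 mice for both).

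Gnas, the gene of the alpha subunit of the stimulatory G protein, was less sharply split between its alleles. Commd1 was 10.2 ± 6.06 points above it on the maternal allele, higher in 8 of 8 mice, and the paternal difference was -5.57 ± 2.06 points, lower in 8 of 8 (adjusted exact p = 0.0469 for each). Against H13, a gene for a signal peptide peptidase, the paternal difference was -3.72 ± 2.08 points, lower in 7 of 8 mice (adjusted exact p = 0.0469), and the maternal difference 5.52 ± 5.26 points (adjusted exact p = 0.0536). Against Mest, an imprinted gene of the hydrolase fold family, the maternal difference was 11.5 ± 6.62 points, higher in 6 of 6 mice (adjusted exact p = 0.0536). The paternal difference from Mest was -8.46 ± 2.07 points, lower in 5 of 5 mice (adjusted exact p = 0.0750). Against Snrpn, a gene for a spliceosomal protein, the maternal difference was 6.68 ± 3.83 points, higher in 5 of 5 mice, and the paternal one -3.75 ± 1.60 points, lower in 5 of 5 (adjusted exact p = 0.0750 for each). These 4 did not pass, although each was at the smallest exact p its number of mice allows, and all 4 passed with a minimum of 20 calls (adjusted exact p = 0.0312). The adjustment covers 12 comparisons, and with any 1 mouse left out none of the 4 that passed did so (adjusted exact p from 0.0625 to 0.0938).

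The reciprocal crosses did not differ detectably in level. On either parental allele, the cross also sets the strain of the allele read. Limma called 0 of 12 region-level cross comparisons at Commd1, beside 0 of 97 in the table (0%; 0 of 12 and 4 of 97 at an unadjusted p under 0.05), and edgeR also called none of the 12. At single CpGs limma called none of 78 maternal and 78 paternal Commd1 tests, beside 0 of 1213 in the table (0%). Of the Commd1 tests, 4 had an unadjusted p under 0.05, beside 65 of the 1213. Over all tissues the maternal level was 90.0% ± 3.34 with a CAST mother and 90.8% ± 4.11 with a BL6 mother (SD, n = 4 each, exact permutation p = 0.629). The paternal level was 6.11% ± 2.12 with a CAST mother and 5.10% ± 0.75 with a BL6 mother (n = 4 each, exact permutation p = 0.486).

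By tissue, the fitted CAST mother minus BL6 mother difference on the maternal allele ran from -4.68 points in hypothalamus to 3.28 points in cerebellum. On the paternal allele it ran from -2.04 points in prefrontal cortex to 4.15 points in cerebellum. Limma adjusted p ran from 0.758 to 0.950 over the 12. Of the 12 comparisons, the crosses overlapped in all but maternal hippocampus and paternal nucleus accumbens. In maternal hippocampus 2 mice with a CAST mother, both young, had 92.3% and 89.6%. There 3 mice with a BL6 mother had 93.4% and 94.6% (old mice 1 and 2) and 95.7% (young mouse 7). Cross and age were thus partly confounded in this tissue, and the exact test takes no account of age. In paternal nucleus accumbens the values were 4.76%, 6.01% and 5.20% with a CAST mother against 1.19%, 3.58% and 4.19%. The exact permutation p of 0.100 is the smallest possible for either comparison, and neither passed when adjusted. With so few mice full separation can arise by chance, and its frequency in the whole table was not counted.

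More Commd1 calls came from the maternal than from the paternal allele in both crosses. The maternal share of calls was above 50% in 40 of 48 libraries and averaged 56.6% ± 5.86 per mouse (SD, n = 8, exact sign-flip p = 0.0312 against 50%), a test chosen after the shares were seen. It was above 50% in 7 of 8 mice; the exception, mouse 3 at 43.6%, includes its hippocampus library, which had 26 calls in all and no maternal ones. By cross it was 57.6% ± 1.73 with a BL6 mother and 55.5% ± 8.62 with a CAST mother (n = 4 each). The share of calls from BL6 is the maternal share with a BL6 mother and the paternal share with a CAST mother. Its difference between crosses therefore restates the maternal share and is no separate result. The BL6 share was 57.6% with a BL6 mother and 44.5% with a CAST mother (exact permutation p = 0.0571). It averaged 51.1% ± 9.08 over the mice (n = 8, exact sign-flip p = 0.742 against 50%). Which parent and which strain these shares belong to also rests on reading genome 1 as BL6. Taken as CAST, the maternal share was 43.4% ± 5.86 (n = 8, exact sign-flip p = 0.0312), and the BL6 share was 42.4% with a BL6 mother and 55.5% with a CAST mother.

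In the 38 libraries with 50 or more calls on both alleles the maternal share was 56.1% ± 3.26 (n = 8, exact sign-flip p = 0.0156). The BL6 share there, which restates the maternal share, was 56.2% ± 4.30 with a BL6 mother and 44.0% ± 2.51 with a CAST mother (n = 4 each, exact permutation p = 0.0286, the smallest possible). Without the prefrontal cortex library of mouse 5 the maternal share was 55.8% ± 5.05 (n = 8, exact sign-flip p = 0.0312). It missed without mouse 1, 2, 4, 5 or 7 (exact sign-flip p = 0.0625, n = 7), with mean shares that stayed above 50%. By tissue, over libraries with 50 or more calls on both alleles, the share was 61.8% ± 3.52 in cerebellum (n = 7), above 50% in each of those libraries, and between 54.6% and 58.2% in the other tissues.

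Given as a description, the maternal share in such libraries was 48.3% at Gnas, 46.7% at H13, 46.4% at Plagl1 and 50.8% at Impact (means over 8, 8, 7 and 7 mice). It was 50.0% at Mest (5 mice) and 48.0% at Snrpn (4 mice). The share was above 50% in 0 of 8 mice at H13 and 0 of 7 at Plagl1, so a skew of calls to 1 parental allele was not particular to Commd1. At the unmethylated control Klf4 the share followed the strain, at 67.2% with a BL6 mother and 33.2% with a CAST mother. The other controls, Sox2ot and Prickle1, had 49.7% and 51.0% (8 mice each). Calls were counted after amplification of bisulfite-treated DNA, and the part of amplification in these shares was not tested.

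**Figure D5:**
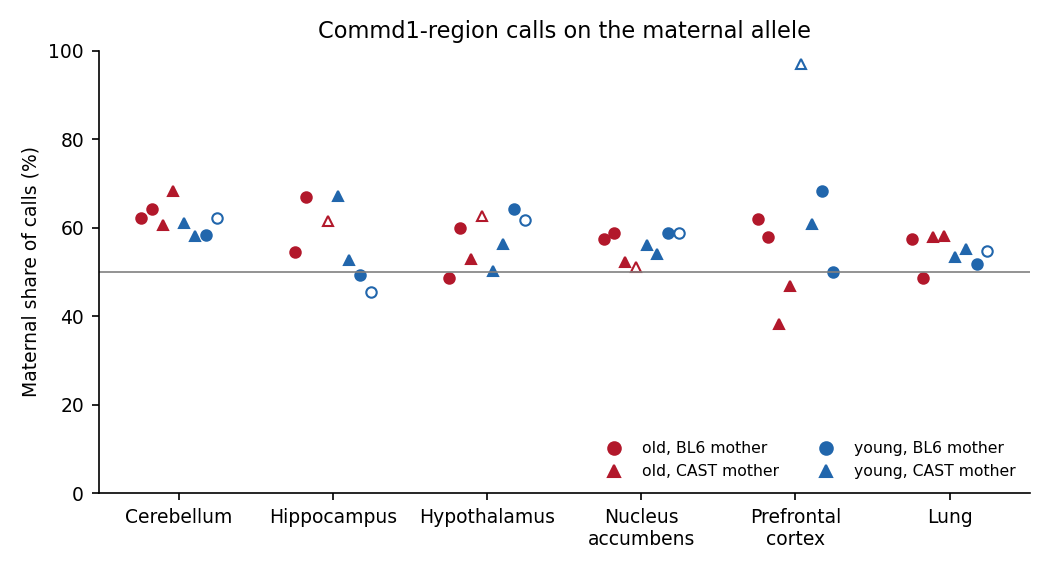
Share of Commd1-region calls on the maternal allele (percent) in 47 libraries by tissue, coloured by age and shaped by mother's strain, with open symbols for libraries under 50 calls per CpG on either allele; the hippocampus library of mouse 3, with 26 calls in all, is not drawn. Most points lie above the line at 50%, and the prefrontal cortex library of mouse 5 lies at 97.0%.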

How the data were processed

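Percent methylation and total calls per CpG, allele and library were deposited by the authors in 1 table on build GRCm38. Per the submitters' processing notes the tools were bcl2fastq 2.20, Trim Galore 0.6.6 and Bismark 0.14.4; how reads were assigned to alleles or collapsed is not given in the sources used here. The deposited percent values times the deposited counts of calls are whole to within 0.000266, so methylated counts were recovered from them. Library totals ran from 376 to 461238 calls (median 62773).

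CpGs with 50 or more calls on the allele were averaged per region and allele (percentage points, mice weighted equally). Age and cross differences (R 4.3.3, limma 3.58.1) were fitted per tissue over all region-alleles or CpG-alleles with at least 2 mice per age, and tissue differences in 1 fit with age and cross as covariates and at least 3 mice per tissue. Benjamini-Hochberg adjustment ran over the whole table at 0.05. Single values used exact two-sided permutation or sign-flip tests. The limma step was tested on simulated cerebellum data, with mean levels kept away from both ends of the scale. Its age shifts were larger than any fitted region-level age difference at Commd1, so that test does not bear on shifts of the size seen here. Alternatives were other minimums of calls (20, 100, 200), each mouse left out, a logit scale and calls pooled over CpGs. Others were edgeR 4.0.16, adjustment within tissues, no cross covariate, a replicate block for mouse (age and cross) and limma on differences within mice (tissues). The libraries of a mouse are paired, since they come from the same animal. The median correlation of their deviations was 0.17 over 15 pairs of tissues. Members and lists were chosen with earlier results of these data known. Single CpGs named are those past the threshold and the highest and lowest of each allele; others named were chosen after their values were seen.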

Additional observations from a re-analysis of the deposited data

Results flagged for a closer look

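Of 22 groups of 4 mice in which an age and tissue could be examined for a value far from the others, 2 held such a value, where chance gives about 5% of groups. The paternal level of old mouse 4 in cerebellum was 11.7%, with 76 calls per CpG, while old mice 1, 2 and 3 had 2.16%, 3.40% and 3.49%. The maternal share of calls of old mouse 2 in lung was 48.6%, while old mice 1, 3 and 4 had 57.6%, 57.9% and 58.1%.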

How the results depend on the processing

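The maternal level averaged 79.8% in the 4 libraries with under 100 maternal calls per CpG, all of them from mice 4 and 8. It averaged 90.9% with 100 to 200 calls and 92.4% with 200 or more, and the cause was not tested. No age or cross difference in methylation level passed under any alternative run. The replicate block for mouse, with a correlation of 0.07 within mice, was fitted for age and cross and changed no call at region level. Tissues were instead compared by limma on the differences within mice of each tissue pair, which also changed no call at region level. There prefrontal cortex minus hypothalamus on the maternal allele was 5.50 points (limma adjusted p = 0.339). At single CpGs the fit of differences within mice, added after seeing the data, called 1 and not CpGs 7 (7.80 points) and 9 (7.30). With genome 1 taken as CAST, maternal minus paternal was -84.8 points in both hypothalamus and lung, -86.3 in nucleus accumbens, -88.1 in hippocampus, -86.7 in prefrontal cortex and -87.1 in cerebellum; the BL6 share minus 50% was -1.05, its difference between crosses -13.1 and the maternal share minus 50% -6.57. With a minimum of 100 calls cerebellum missed the threshold at 87.8 points, and with 200 calls cerebellum (86.5), hypothalamus (85.8), lung (88.0) and prefrontal cortex (87.5) missed it, with fewer mice left; with 20 calls hippocampus passed (85.2). With 1 mouse left out, maternal minus paternal kept its sign, ranging from 85.9 to 88.6 in cerebellum, 83.3 to 87.3 in hypothalamus, 83.8 to 86.3 in lung, 85.4 to 87.5 in nucleus accumbens and 86.0 to 87.2 in prefrontal cortex, and missed the threshold without 6 of 8 mice because fewer mice raise the smallest p. The count of Commd1 CpGs called between tissues was 1 with edgeR, 1 without the mouse 5 library, 0 with minimums of 20, 100 and 200 calls, and 0 to 2 with 1 mouse left out. For Commd1 minus another region, 20 calls gave 14.4 (Mest) and 16.4 (Snrpn) on the maternal allele and -10.5 (Mest), -7.86 (Snrpn), -2.37 (H13, missed) and 2.85 (Plagl1, missed) on the paternal allele (Mest and Snrpn passing on both, adjusted exact p = 0.0312), and 100 calls gave 5.44 (H13) and 6.71 (Impact), both passing. With 200 calls Gnas (9.96 maternal, -6.84 paternal), H13 (-3.21 paternal) and Plagl1 (1.70 paternal) missed, and paternal Impact turned to 0.56. With 1 mouse left out the ranges were 8.38 to 11.4 for maternal Gnas, -5.98 to -5.19 for paternal Gnas, -4.28 to -3.21 for paternal H13, -0.44 to 1.15 for maternal Plagl1 and 2.10 to 2.94 for paternal Plagl1. Differences that did not pass changed sign as follows. For age these were maternal hippocampus (0.39 with 20 calls, 1.43 with no cross covariate), paternal hypothalamus (-0.34 with 20 calls, -1.44 with 200, -0.61 with no cross covariate), maternal lung (0.59 with 20 calls, 0.55 with 100), paternal lung (-0.18 log2 odds with edgeR, -0.13 on the logit scale, -4.28 points with 20 calls), nucleus accumbens (maternal 2.17 with 200 calls, paternal 1.26 with 20) and the maternal mean over tissues (0.13 with 20 calls, 0.21 without the mouse 5 library). For cross these were paternal lung (0.13 with edgeR, 0.084 logit) and maternal prefrontal cortex (0.25 with edgeR, 0.20 logit). The paternal step along the amplicon was 0.066, 0.0063 and 0.25 with 20, 100 and 200 calls. With 1 mouse left out, age differences ranged from -5.18 to 0.51 (paternal cerebellum), -1.69 to 2.98 (maternal hippocampus), -3.66 to 5.53 and -1.54 to 2.03 (maternal and paternal hypothalamus), -3.89 to 0.55 and -1.93 to 1.46 (maternal and paternal lung) and -2.06 to 1.70 (maternal mean over tissues). Cross differences ranged from -8.92 to 0.29 (maternal hypothalamus), -1.53 to 2.92 and -2.82 to 2.26 (maternal and paternal lung), -1.96 to 1.01 (maternal prefrontal cortex) and -2.84 to 0.92 (maternal mean over tissues), and the paternal step from -0.13 to 0.075. The share of calls from BL6 minus 50% ranged from -0.14 to 3.22, its difference between crosses from 10.3 to 17.1 (12.2 in the deeper libraries and 17.1 without mouse 3, where it passed, exact permutation p = 0.0286), and the maternal share minus 50% from 5.49 to 8.42. The difference between crosses in the BL6 share restates the maternal share and is no separate result. Restricting to libraries with all 14 CpGs was not run, because CpG 14 never reached the minimum.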
